A study of Mus musculus with 9 samples.

Results

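The genes described here are 8 genes of the sperm mitochondrial sheath, of thiol chemistry in spermatids and of selenium supply, namely Smcp, Gpx4, Txnrd3, Txndc2, Txndc8, Prdx4, Selenop and Lrp8. They were listed by name for their known roles and were 8 of the 32035 genes in the data. All 37 of their transcripts in the data, of 95301 in all, were examined. Poly(A) RNA was sequenced from the testes of C57Bl6/N male mice aged 15 weeks, with 3 wild-type (WT) samples, 3 α7ΔIBB/ΔIBB samples and 3 α7-/- samples. Kpna6 encodes importin α7, an adaptor that carries nuclear proteins through the nuclear pore together with importin β. In α7ΔIBB/ΔIBB mice exon 2 of Kpna6 was removed, so that translation could begin only inside exon 3 and gave a protein without the importin β-binding (IBB) domain. In α7-/- mice a gene trap interrupted Kpna6 in intron 1. This line is an incomplete knockout in the testis, since its germ cells, unlike its Sertoli cells, were described as still making the full-length protein from a start downstream of the trap. All animals had been backcrossed to the same background for 10 generations. The labels name the samples as replicates without tying them to animals, so the p-values measure the spread between these samples.

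In the last phase of spermatogenesis the mitochondria of the spermatid wrap around the base of the tail and their outer membranes become encased in a tough, disulphide-linked capsule. Smcp, a protein rich in cysteine and proline, and the selenoenzyme Gpx4, which acts as a glutathione peroxidase in round spermatids and ends as an oxidised, cross-linked structural protein, are its known components. Txnrd3 (thioredoxin-glutathione reductase) rearranges disulphide bonds, Txndc2 and Txndc8 are thioredoxins of spermatids, and Prdx4 is a peroxiredoxin that uses peroxide to oxidise proteins in the secretory pathway. Selenium reaches the testis as selenoprotein P (Selenop), which Sertoli cells take up through the receptor Lrp8, and it enters proteins as selenocysteine at UGA codons that would elsewhere end translation.

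The chemistry of the group can be read from the coding sequences of the annotation, which is on GRCm38 (mm10). Gpx4 and Txnrd3 each had 1 in-frame UGA codon before the stop codon and Selenop had 10. The selenocysteine codons of Gpx4 (chr10:80054725-80054754, plus strand) and Txnrd3 (chr6:89674777-89674794, plus strand), and the first selenocysteine codon of Selenop (chr15:3274836-3274865, plus strand), are shown with TGA in capitals, because they are where the selenium of this group resides.
Gpx4: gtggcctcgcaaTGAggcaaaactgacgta
Txnrd3: cagaaaggctgcTGAggc
Selenop: cttcaagccagcTGAtacttgtgtcttctg
The TGA of Txnrd3 was the penultimate codon of its 615, directly after a cysteine codon. Txndc2 (chr17:65637732-65637761, minus strand) and Txndc8 (chr4:58007090-58007119, minus strand) each held 1 match in frame to the thioredoxin active-site motif, and the capitals mark its 4 codons, which were the same letters in both genes.
Txndc2: gccgcttggTGTGGCCCCTGCagaatgatg
Txndc8: gcaaagtggTGTGGCCCCTGCaaaacaatt
In Smcp, 32 of 143 codons (22.4%) were cysteine and 42 (29.4%) were proline. The coding transcripts examined for the other 7 genes had 0.727% to 6.81% cysteine codons, the highest in Lrp8-201, which is full-length but not the most abundant of Lrp8. The stretch of Smcp richest in cysteine, 12 of 30 codons, lay at chr3:92584272-92584361 on the minus strand, with the cysteine codons in capitals.
Smcp: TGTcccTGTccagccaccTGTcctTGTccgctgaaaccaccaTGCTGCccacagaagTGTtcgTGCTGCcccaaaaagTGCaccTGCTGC

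Kpna6 was read first as a check of the labels. Its level in TPM, a length-normalised relative abundance that sums to the same total in every sample, was 98.3, 163 and 176 in WT, 32, 34.2 and 34.8 in α7ΔIBB/ΔIBB and 134, 137 and 141 in α7-/- samples. It was lower in all α7ΔIBB/ΔIBB samples than in any other sample, and WT replicate 1 stood below the other WT samples. In α7-/- the transcript Kpna6-202, which starts upstream of the testis start, was at 11.3 to 12 TPM against 16.9 to 23.4 TPM in WT, while Kpna6-201, which starts downstream, was at 119 to 126 TPM against 75.4 to 148 TPM. Estimated counts summed to between 24973189 and 31629697 per sample. The labelled tissue carried its defining markers, with elongating spermatid genes such as the protamines at a summed level of 59276 TPM or more in every sample. One library stood apart, since the summed level of 7 epididymis markers was 89.1 TPM in α7ΔIBB/ΔIBB replicate 3 against 3.4 to 8.22 TPM in the other 8 samples. Of the epididymis markers Lcn5 was at 0 in all samples. Germ cell and somatic markers also moved with genotype. The summed level of 10 elongating spermatid markers was 70394 to 80856 TPM in WT, 59276 to 67412 TPM in α7ΔIBB/ΔIBB and 78990 to 80478 TPM in α7-/-, and that of 10 Sertoli cell markers was 893 to 989, 1501 to 1766 and 1088 to 1160 TPM. In bulk tissue, fewer cells of a type and less RNA per cell cannot be told apart.

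In WT testis the 8 genes spanned from 43.5 to 2993 TPM. Smcp was the most abundant at 2993 ± 92.8 TPM (SD, n = 3), rank 18 among all genes, and Gpx4 followed at 2000 ± 46.4 TPM, rank 33 among all genes. Txndc2 (436 ± 12 TPM), Txndc8 (333 ± 8.01 TPM), Txnrd3 (256 ± 3.90 TPM) and Prdx4 (230 ± 8.82 TPM) formed a middle tier in that order, and the WT ranges of neighbours within it did not overlap. Selenop (51.7 ± 8.75 TPM) and Lrp8 (43.5 ± 3.38 TPM) were lowest, and their ranges overlapped, so their order was not separated from the spread. The same order of means held in α7-/-. In α7ΔIBB/ΔIBB Txnrd3 (261 ± 9.11 TPM) stood above Txndc8 (253 ± 18.4 TPM), with overlapping ranges.

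**Figure D1:**
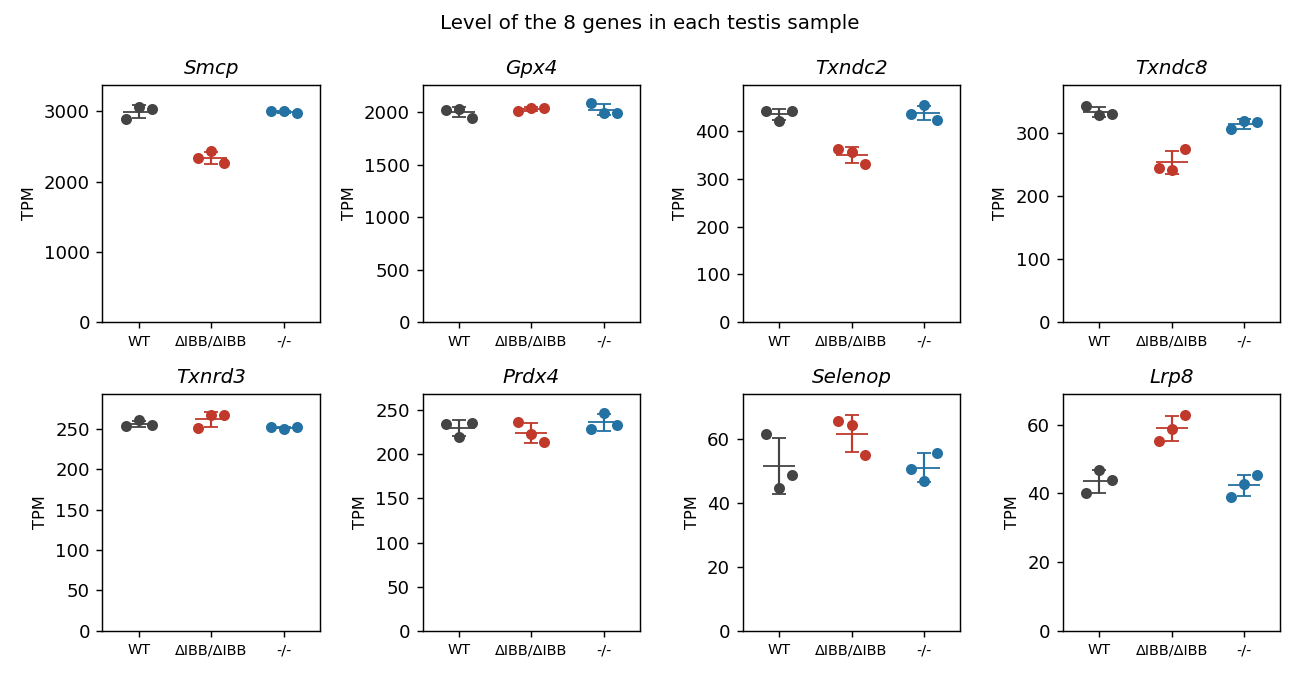
Level of each of the 8 genes in TPM (vertical axes, from 0) in the 3 WT, 3 α7ΔIBB/ΔIBB and 3 α7-/- testis samples; points are samples, horizontal bars means and whiskers SD. The α7ΔIBB/ΔIBB points of Smcp, Txndc2 and Txndc8 lie below every other point, those of Lrp8 lie above, and those of Gpx4, Txnrd3, Prdx4 and Selenop overlap the range of WT.

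The comparison of α7ΔIBB/ΔIBB with WT asks how the testis transcriptome differs in this line. It does not isolate the loss of the IBB domain, since Kpna6 RNA itself fell by 71% (log2 fold change -1.79, adjusted p = 1.94e-05, edgeR). The capsule protein Smcp and the spermatid thioredoxins Txndc2 and Txndc8 fell by similar proportions in normalised counts: Smcp fell by 28.2%, Txndc2 fell by 26.3% and Txndc8 fell by 29.6%. The other capsule protein, Gpx4, fell by 7.27% and Prdx4 fell by 10.1%, and the selenium receptor Lrp8 rose by 12%. Txnrd3 and Selenop did not pass the test. Counts were scaled by the trimmed mean of M-values (TMM) and tested with edgeR's quasi-likelihood test, with p-values adjusted over all genes tested by the Benjamini-Hochberg method and called below 0.05. All 8 genes passed the filter on low counts. Of these, 6 were called, 5 lower and 1 higher, in a comparison that called 36.6% of all genes tested (18.9% lower and 17.7% higher). The median log2 fold change of the 8 genes was -0.13, against 0.01 over all genes tested. Without α7ΔIBB/ΔIBB replicate 2, or without replicate 3, which carried epididymis markers, 3 genes were called, namely Smcp, Txndc2 and Txndc8.

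Smcp was at 2887, 3058 and 3034 TPM in WT and at 2331, 2434 and 2260 TPM in α7ΔIBB/ΔIBB samples. All samples of the mutant were lower than all samples of WT, and the spread within each group was small beside the gap. In the fit Smcp fell by 0.48 on the log2 scale (SE 0.0367, adjusted p = 1.39e-05, edgeR). Despite this fall Smcp stayed the most abundant of the 8 genes.

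Txndc2, which is found in the fibrous sheath of the sperm tail, was at 443, 422 and 443 TPM in WT and 363, 356 and 331 TPM in α7ΔIBB/ΔIBB. The groups did not overlap, and the log2 fold change was -0.44 (SE 0.0387, adjusted p = 2.16e-05, edgeR). Txndc8 was at 342, 328 and 330 TPM in WT and 243, 241 and 274 TPM in the mutant. Txndc8 is known from the Golgi and acrosome of spermatids, and here too the groups did not overlap, with α7ΔIBB/ΔIBB replicate 3 the highest of the mutant samples, and the log2 fold change was -0.51 (SE 0.0544, adjusted p = 6.33e-05, edgeR). Smcp, Txndc2 and Txndc8 were called with the same sign under all 17 alternative settings. They moved with the spermatid markers: 10 of 10 elongating spermatid markers and 8 of 8 round spermatid markers were lower in α7ΔIBB/ΔIBB, and the summed round spermatid level was 1160 to 1269 TPM against 1396 to 1547 TPM in WT. Markers of earlier germ cells were less uniform, with 2 of 8 pachytene spermatocyte markers lower and 3 of 8 spermatogonium markers higher and 1 lower. Over all genes tested 18.9% were lower and 17.7% higher. By cell counts, the paper reported fewer leptotene/zygotene spermatocytes and fewer round spermatids per tubule in both mutant lines. A further loss of pachytene spermatocytes was reported for α7ΔIBB/ΔIBB only, where sperm of the last maturation steps were described as absent.

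Gpx4 was at 2023, 2030 and 1947 TPM in WT and 2008, 2042 and 2043 TPM in α7ΔIBB/ΔIBB, so on the TPM scale the groups overlapped. In TMM-scaled counts it was called lower, with a log2 fold change of -0.11 (SE 0.0344, adjusted p = 0.0293, edgeR). This call depended on the scaling. With counts scaled by library totals alone, the median log2 fold change of all genes moved from 0.01 to 0.11, the calls moved from 3327 higher and 3547 lower to 5416 higher and 2326 lower, and Gpx4 was at -0.01 (adjusted p = 0.804, edgeR). On log2(TPM + 1) its sign turned, to 0.02 (adjusted p = 0.567, limma). The fall of Gpx4 was of the size of the shift between scalings, and the falls of Smcp, Txndc2 and Txndc8 were larger than that shift.

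Prdx4 was at 234, 219 and 235 TPM in WT and 236, 223 and 214 TPM in the mutant, and these ranges overlapped. Its log2 fold change in TMM-scaled counts was -0.15 (SE 0.0476, adjusted p = 0.0267, edgeR), and it was not called with library totals alone (-0.06, adjusted p = 0.388, edgeR). Txnrd3 was at 253, 260 and 254 TPM in WT and 251, 266 and 267 TPM in the mutant. Its log2 fold change was -0.09 (SE 0.0390, adjusted p = 0.0866, edgeR), and the sign turned with library totals alone and on the TPM scale. In a fit of all 9 samples together Txnrd3 was called lower (-0.10, adjusted p = 0.0429, edgeR), and in the other 16 alternatives it was not called.

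Of the selenium supply pair, Selenop was at 61.6, 44.9 and 48.8 TPM in WT and 65.7, 64.3 and 55.1 TPM in α7ΔIBB/ΔIBB. WT replicate 1 lay within the mutant range, and this sample also had the highest summed Leydig cell marker level of all samples (3019 TPM against 1979 to 2840 TPM in the others), whose part in the value was not tested. The log2 fold change of Selenop was 0.16 (SE 0.0964, 95% confidence interval -0.05 to 0.38, adjusted p = 0.217, edgeR). Without WT replicate 1 it was 0.29 and called (adjusted p = 0.0129), and without WT replicate 2 it was 0.08 and not called, so that single WT samples decided the value. Lrp8 was at 40.0, 46.7 and 43.9 TPM in WT and 55.4, 58.9 and 62.7 TPM in the mutant, with no overlap. Its log2 fold change in TMM-scaled counts was 0.16 (SE 0.0482, adjusted p = 0.0217, edgeR), and on log2(TPM + 1) it was 0.43 (adjusted p = 0.00738, limma). Lrp8 was called under all 11 other settings that kept all samples, but under only 2 of the 6 fits that left out 1 sample, with values from 0.13 to 0.20. Lrp8 rose beside the Sertoli cell markers, of which 10 of 10 were higher in α7ΔIBB/ΔIBB; their part in the result was not tested.

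The comparison of α7-/- with WT asks the same of the gene trap line. None of the 8 genes was called by edgeR, in a comparison that called 1.6% of all genes tested; 1 of the 8 had an unadjusted p under 0.05, and DESeq2 and limma called none either. Smcp was at 3011, 3000 and 2982 TPM, Gpx4 at 2086, 1992 and 1993 TPM and Txndc2 at 437, 454 and 424 TPM, each overlapping the WT values. The intervals were narrow for these genes: the log2 fold change of Smcp was 0.01 (95% confidence interval -0.06 to 0.08), that of Gpx4 0.03 (-0.05 to 0.11) and that of Txndc2 0.02 (-0.06 to 0.10). Txndc8, at 305, 319 and 317 TPM, lay below the WT samples, with a log2 fold change of -0.10 (SE 0.0469, adjusted p = 0.368, edgeR). Lrp8 had the lowest unadjusted p, with 39.0, 42.7 and 45.3 TPM, a log2 fold change of -0.14 (SE 0.0509) and an adjusted p of 0.221 (edgeR). None of the 10 elongating spermatid markers was called in α7-/-, and 3 of 10 Sertoli cell markers were higher.

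The mutant lines were also compared directly, which tests whether they differ from each other. As against WT, 6 of the 8 genes were called, 5 lower and 1 higher in α7ΔIBB/ΔIBB, in a comparison that called 30.3% of all genes tested (16.8% lower and 13.5% higher). The log2 fold change of Smcp was -0.50 (SE 0.0312, adjusted p = 1.45e-06, edgeR), that of Txndc2 -0.47 and that of Txndc8 -0.42. Lrp8 was 22.5% higher (log2 fold change 0.29, SE 0.0434, adjusted p = 0.000386, edgeR) and was called under all 17 alternatives. Gpx4 (log2 fold change -0.145) and Prdx4 (-0.22) were called lower with TMM scaling and not with library totals alone or on log2(TPM + 1), where Gpx4 turned to 0.01. With library totals alone the median of all genes was 0.10 and the calls moved from 2523 higher and 3150 lower to 4931 higher and 2016 lower. Txnrd3 and Selenop had adjusted p of 0.0954 and 0.152 (edgeR). Without α7ΔIBB/ΔIBB replicate 3 they were called, Txnrd3 at -0.11 (adjusted p = 0.0429, edgeR) and Selenop at 0.21 (adjusted p = 0.0126, edgeR). Selenop was also called with library totals alone (0.23, adjusted p = 0.018, edgeR). For Smcp, Txndc2 and Txndc8 the values against α7-/- stood beside those against WT as -0.50 and -0.48, -0.47 and -0.44, and -0.42 and -0.51.

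**Figure D2:**
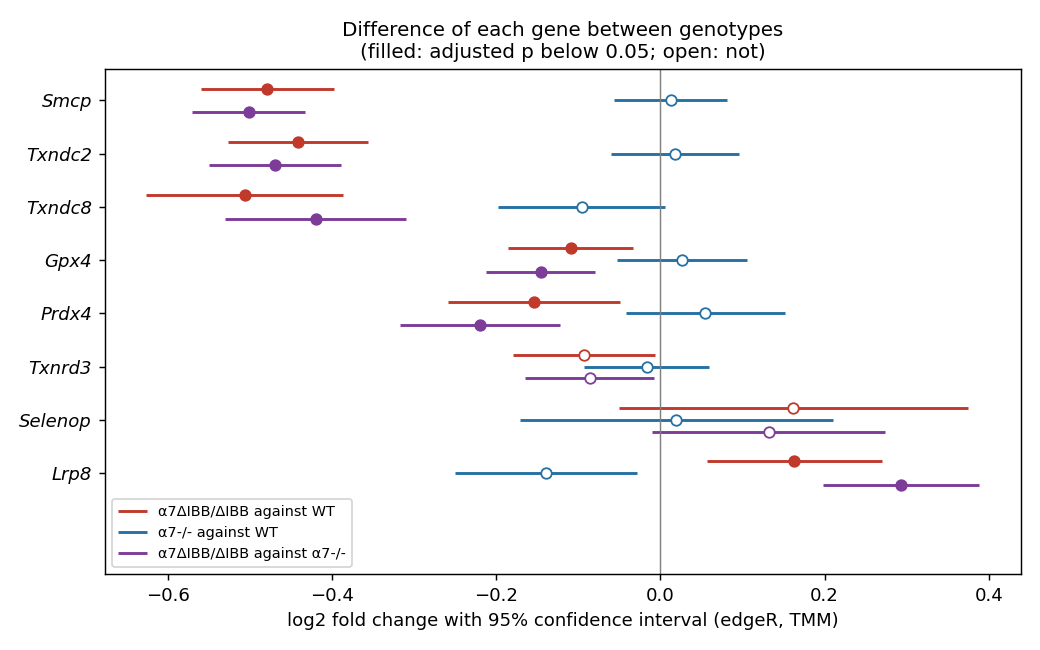
Log2 fold change of each gene (horizontal axis, edgeR with TMM scaling) with its 95% confidence interval, for α7ΔIBB/ΔIBB against WT, α7-/- against WT and α7ΔIBB/ΔIBB against α7-/- (3 samples per genotype); filled points were called at adjusted p below 0.05. Smcp, Txndc2 and Txndc8 lie between -0.42 and -0.51 in both comparisons of α7ΔIBB/ΔIBB, and no point of α7-/- against WT is filled.

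The size of the falls was set against the spermatid markers within each sample. Smcp was at 35.7, 38.7 and 43.1 TPM per 1000 TPM of the 10 elongating spermatid markers in WT, and at 34.6, 36.6 and 38.1 TPM in α7ΔIBB/ΔIBB. The groups overlapped on this scale, and their ratio was 0.930, where the ratio of Smcp to Gpx4 had fallen to 0.770 of WT with no overlap (1.43, 1.51 and 1.56 in WT, and 1.16, 1.19 and 1.11 in the mutant). Txndc2 (ratio of group means 0.954) overlapped likewise relative to the markers. Txndc8 was at 4.23, 4.14 and 4.68 TPM per 1000 TPM of markers in WT and at 3.61, 3.63 and 4.62 TPM in α7ΔIBB/ΔIBB, a ratio of 0.908. Its overlap rested on α7ΔIBB/ΔIBB replicate 3, the library with epididymis markers, and the other mutant samples lay below all WT samples. In α7-/- Txndc8 was at 3.80, 4.03 and 4.01 TPM on this scale, 0.906 of WT with no overlap. Gpx4 went the other way, at 26.1 ± 1.37 TPM per 1000 TPM of markers in WT and 31.7 ± 2.47 TPM in α7ΔIBB/ΔIBB (SD, n = 3), with no overlap. The smallest p that an exact two-sided permutation test of 3 against 3 samples allows is 0.1, and the ratios without overlap reached it (adjusted p = 0.21 over 21 ratios), so no ratio passed the threshold. Relative to the markers, the mutant-to-WT ratio was 0.908 to 0.954 for Smcp, Txndc2 and Txndc8 and 1.21 for Gpx4. Prm1, Prm2, Tnp1 and Tnp2 are among these markers, and the paper found their mRNA reduced in sorted round spermatids of α7ΔIBB/ΔIBB. The marker sum thus need not follow the number of spermatids, and the ratios are not levels per cell.

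**Figure D3:**
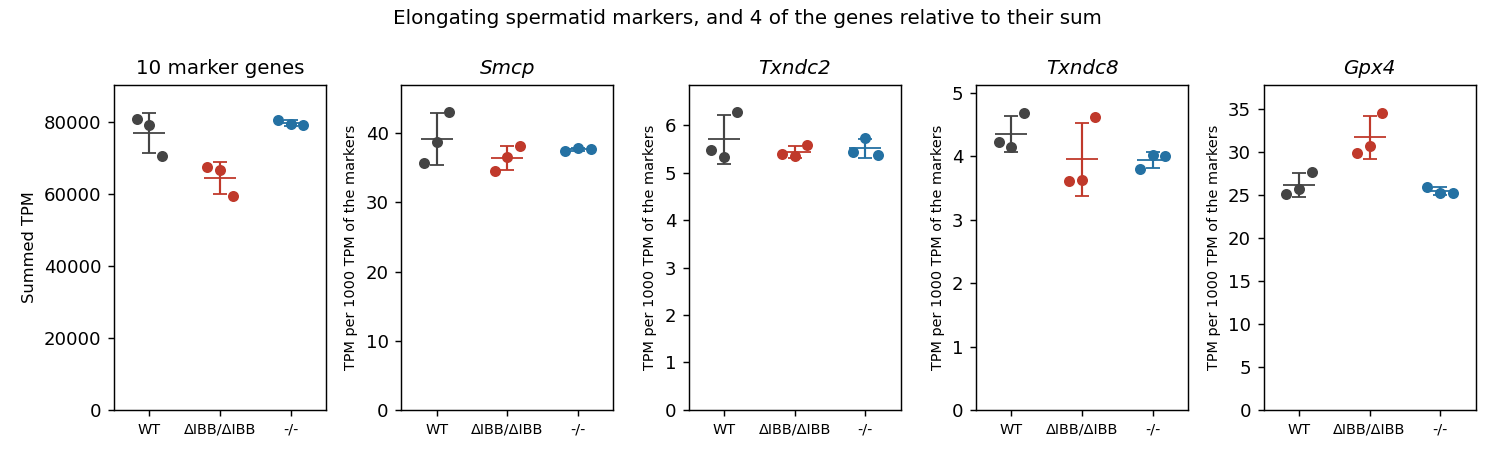
Summed TPM of 10 elongating spermatid markers (left), and TPM of Smcp, Txndc2, Txndc8 and Gpx4 per 1000 TPM of these markers, in the 3 samples of each genotype; points are samples, bars means and whiskers SD, and axes start at 0. The α7ΔIBB/ΔIBB points of Gpx4 lie above all others, and those of Smcp, Txndc2 and Txndc8 overlap WT.

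Of the 37 transcripts, 29 reached a mean of 1 TPM in at least 1 genotype and 27 of these passed the filter on low counts. In α7ΔIBB/ΔIBB against WT 6 of them were called (9.73% of all transcripts tested), in α7-/- against WT none (0.0561%; 1 had an unadjusted p under 0.05, and limma called none), and in α7ΔIBB/ΔIBB against α7-/- 6 (7.35%). The transcripts called were the same in both comparisons of α7ΔIBB/ΔIBB: Smcp-201, Txndc2-201, Txndc8-201, Gpx4-201 and Prdx4-203 were lower and Lrp8-202 was higher. Smcp-201 (2976 ± 92.6 TPM in WT), Txndc2-201 and Txndc8-201 carried nearly all of their genes' TPM, so these calls repeat those of the genes.

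Gpx4 is transcribed from alternative first exons. Gpx4-202 starts upstream and encodes the form sent to mitochondria or cytosol, and Gpx4-201 starts in the next exon and encodes the nuclear form known from sperm heads, which has an arginine-rich beginning. The first 60 coding bases show that the proteins begin differently, at chr10:80053632-80053691 and chr10:80054049-80054108 (plus strand), with the start codon in capitals. The last 509 coding bases were shared.
Gpx4-202: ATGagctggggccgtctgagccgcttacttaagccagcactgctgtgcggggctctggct
Gpx4-201: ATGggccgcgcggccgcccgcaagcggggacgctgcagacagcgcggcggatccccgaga
Gpx4-202 was at 1611, 1620 and 1560 TPM in WT and 1628, 1660 and 1656 TPM in α7ΔIBB/ΔIBB, and in counts it did not pass the test (log2 fold change -0.06, SE 0.0340, adjusted p = 0.317, edgeR). Gpx4-201 was at 289, 284 and 254 TPM in WT, 240, 243 and 244 TPM in α7ΔIBB/ΔIBB and 292, 293 and 293 TPM in α7-/-. The mutant samples with the IBB deletion were the lowest 3 of the 9, and the log2 fold change was -0.295 against WT (SE 0.0611, adjusted p = 0.0294, edgeR) and -0.40 against α7-/- (SE 0.0305, adjusted p = 0.00141, edgeR). The comparisons share the α7ΔIBB/ΔIBB samples, and the call against WT was lost in 5 of the 6 fits that left out 1 sample (-0.309 to -0.255), whereas the call against α7-/- held in all 6. Against WT it was also lost with library totals alone (-0.21, adjusted p = 0.07, edgeR), on log2(TPM + 1) (-0.18, adjusted p = 0.0804, limma) and with the replicate number as a block (-0.29, adjusted p = 0.0776, edgeR). As a share of Gpx4 TPM, Gpx4-201 was 13.8% ± 0.633 in WT, 11.9% ± 0.0204 in α7ΔIBB/ΔIBB and 14.5% ± 0.409 in α7-/- (SD, n = 3). The α7ΔIBB/ΔIBB shares did not overlap those of WT, with an exact permutation p of 0.1, the smallest possible, and an adjusted p of 0.386 over 27 shares.

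Prdx4 also has alternative first exons, and the upstream exon, used by Prdx4-203, is known as the testis form without the signal peptide. The coding starts lay at chrX:155340448-155340507 (Prdx4-203) and chrX:155338303-155338362 (Prdx4-201), on the minus strand, and are shown to tell the 2 forms apart.
Prdx4-203: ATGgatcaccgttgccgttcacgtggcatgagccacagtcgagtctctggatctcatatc
Prdx4-201: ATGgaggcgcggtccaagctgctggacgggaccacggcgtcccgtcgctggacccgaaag
Prdx4-203 carried 67.7% ± 2.27 of Prdx4 TPM in WT and 64.0% ± 1.14 in α7ΔIBB/ΔIBB (SD, n = 3; exact permutation p = 0.1, adjusted p = 0.386). Its log2 fold change against WT was -0.22 (SE 0.0486, adjusted p = 0.0341, edgeR), and that of Prdx4-201 was 0.01 (SE 0.0846, adjusted p = 0.962, edgeR). The call of Prdx4-203 was lost in all 6 fits that left out 1 sample (-0.252 to -0.197), with library totals alone (-0.14, adjusted p = 0.137, edgeR) and on log2(TPM + 1) (-0.11, adjusted p = 0.221, limma). The difference between the changes of the transcripts was tested only through the shares. Their annotated ends also differed, at position 155328446 of the X chromosome for Prdx4-203 and 155323918 for Prdx4-201. The shares therefore do not measure the use of the first exons alone.

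**Figure D4:**
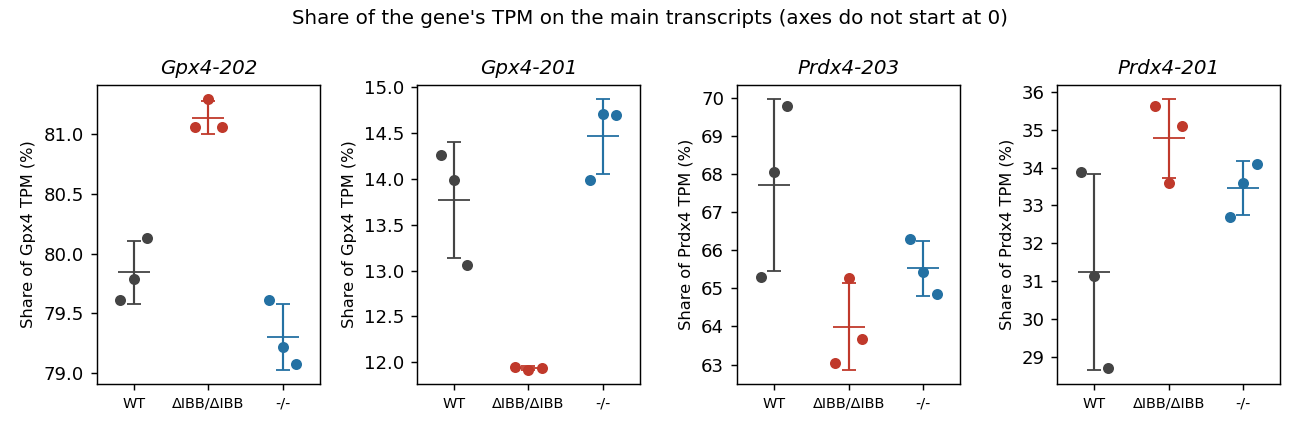
Share of the TPM of Gpx4 on Gpx4-202 and Gpx4-201, and of Prdx4 on Prdx4-203 and Prdx4-201, in percent, in the 3 samples of each genotype; points are samples, bars means and whiskers SD, and the axes do not start at 0. The Gpx4-201 shares of α7ΔIBB/ΔIBB lie at 11.9% and those of WT and α7-/- average 13.8% and 14.5%.

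The full-length coding transcript of Lrp8 did not rise. Lrp8-201, which encodes the whole receptor, was at 6.64, 6.76 and 6.09 TPM in WT and 4.67, 5.32 and 6.52 TPM in α7ΔIBB/ΔIBB (log2 fold change -0.345, SE 0.137, adjusted p = 0.182, edgeR). Lrp8-202, whose annotated start at position 107830985 of chromosome 4 lies downstream of that of Lrp8-201 at position 107802314, was at 12.9, 11.1 and 10.7 TPM in WT and 16.2, 16.0 and 15.6 TPM in the mutant, with no overlap. Its log2 fold change was 0.36 (SE 0.0805, adjusted p = 0.0384, edgeR), a call that was lost in 5 of the 6 fits that left out 1 sample (0.29 to 0.358), and against α7-/- it was 0.45 and held in all 6. Lrp8-201 made up 15.0% ± 1.43 of Lrp8 TPM in WT and 9.29% ± 1.00 in α7ΔIBB/ΔIBB (SD, n = 3), also without overlap (exact permutation p = 0.1, adjusted p = 0.386). The transcripts Lrp8-207, Lrp8-208 and Lrp8-212, annotated as non-coding, had log2 fold changes of 0.57, 0.605 and 1.07 that did not pass the test (adjusted p = 0.179, 0.188 and 0.0908, edgeR). In WT and the mutant, their means were 7.43 and 11.9 TPM (Lrp8-207), 8.27 and 13.6 TPM (Lrp8-208), and 1.82 and 4.07 TPM (Lrp8-212). Lrp8 has 12 annotated transcripts that overlap, so the split of its reads is uncertain. Some cover only a small part of the gene, such as Lrp8-208, from position 107846201 to 107848295. Lrp8 and Txndc8 lie on chromosome 4, as does Kpna6.

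Smcp, Txndc2 and Txndc8, which fell together, were compared in the window from 250 bases before to 50 bases after their RefSeq start sites (GRCm38.p6). All 8 genes had such windows. After the letters had been seen, the 8-base sequence TGATGTCA, which differs from the cAMP response element TGACGTCA in its centre, was counted on both strands. It was held by the windows of Smcp, Txndc2 and Txndc8 and by none of the other 5 genes, and by 3.62% of all windows (4.18% of all genes with a window). TGACGTCA itself was held by none of the 8 genes and by 1.79% of all windows. The TATA letters TATAAA were found only in the window of Selenop among the 8 genes (13.6% of all windows), and CCAAT in those of Gpx4, Prdx4 and Txndc8 (37.4%). The 30 bases around each match are shown with the match in capitals, at chr3:92589031-92589060 for Smcp, chr4:58009132-58009161 for Txndc8 and chr17:65642315-65642344 for Txndc2, all in the direction of the gene on the minus strand.
Smcp: ggagagtattaTGATGTCAtaaaagagctg
Txndc8: gacccatccaaTGATGTCAtagaaaagtta
Txndc2: ggaagcctcatTGACATCAcaatgtcatca
In Txndc2 the match lay on the opposite strand, so its complement TGACATCA is printed. Counted from the RefSeq start site, the match began at -24 in Txndc8, at -129 in Txndc2 and at 25 in Smcp. The GENCODE start of Smcp-201 differs, at position 92588997 of chromosome 3, and the Smcp match lies upstream of it. This is a description of letters, and no binding was measured.

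The wider pathways were described from 5 lists, which include the 8 genes. In α7ΔIBB/ΔIBB against WT, the list of mitochondrial sheath and midpiece genes had 10 of 16 members lower and none higher. Over all genes tested 18.9% were lower and 17.7% higher. The median log2 fold change of the list was -0.165 against 0.01 over all genes. Without α7ΔIBB/ΔIBB replicate 3 the list had 9 lower and none higher. With library totals alone it had 6 lower and 2 higher, where 2326 of all genes were lower and 5416 higher. On log2(TPM + 1) with limma it had 6 lower and 3 higher, where 1572 of all genes were lower and 3847 higher. Beside Smcp and Gpx4 the lower genes of the main fit included Armc12, which ties mitochondria together during sheath formation. Armc12 was at 276 ± 13.9 TPM in WT and 203 ± 6.01 TPM in the mutant (log2 fold change -0.57, adjusted p = 1.86e-05, edgeR). They also included Spata19, a mitochondrial protein of spermatids, at 903 ± 59.3 and 706 ± 40.2 TPM (log2 fold change -0.48, adjusted p = 8.27e-05, edgeR).

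Selenoproteins moved in both directions. Of 24 listed, 22 were tested, 4 were higher and 6 lower, with a median log2 fold change of 0.07. Over all genes tested 17.7% were higher and 18.9% lower. With library totals alone 8 of the list were higher and 3 lower, where 5416 of all genes were higher and 2326 lower. Selenov, a selenoprotein of the testis, fell from 210 ± 11.2 to 171 ± 11.9 TPM (log2 fold change -0.43, adjusted p = 0.000184, edgeR), and the deiodinase Dio1 from 2.78 ± 0.509 to 1.54 ± 0.319 TPM (-0.95, adjusted p = 0.00289). Msrb1, a methionine sulphoxide reductase, rose from 7.21 ± 0.474 to 14.8 ± 0.583 TPM (0.88, adjusted p = 0.000149). Gpx3, the extracellular glutathione peroxidase, was at 15.4, 10.9 and 15.3 TPM in WT and 24.5, 24.2 and 56.8 TPM in the mutant, where the highest value came from the library with epididymis markers. Its log2 fold change was 1.23 with that library (adjusted p = 0.00808) and 0.68 without it (adjusted p = 0.00189, edgeR). Of 11 genes for selenium uptake and selenocysteine insertion, 2 were higher (Lrp8 and Secisbp2l, a paralogue of the selenocysteine insertion protein Secisbp2, at 0.25) and 1 was lower, against 3 and 0 with library totals alone. Secisbp2l was not called on log2(TPM + 1) (adjusted p = 0.0539, limma).

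Among 30 genes of the thioredoxin family 9 were higher and 7 lower, where 36.6% of all genes tested were called. With library totals alone, where 5416 of all genes were higher and 2326 lower, the family had 10 higher and 5 lower. The falling genes included Pdilt, a testis protein disulphide isomerase (log2 fold change -0.67, adjusted p = 6.56e-05, edgeR), and Glrx2, a glutaredoxin (-0.59, adjusted p = 1.51e-05), and the rising genes included the general thioredoxin Txn1 (0.54, adjusted p = 0.00155) and Txndc5 (0.39, adjusted p = 0.0151). The call of Txndc5 was lost in 3 of the 6 fits that left out 1 sample, namely WT replicate 2 (0.31), WT replicate 3 (0.31) or α7ΔIBB/ΔIBB replicate 1 (0.36). Among 23 peroxide and glutathione enzymes 9 were higher and 4 lower (11 and 2 with library totals alone). Gpx7, an enzyme of the endoplasmic reticulum, rose from 1.15 ± 0.320 to 3.14 ± 0.771 TPM (1.44, adjusted p = 0.000717), and Srxn1, which repairs overoxidised peroxiredoxins, fell from 68.4 ± 6.07 to 49.0 ± 9.07 TPM (-0.54, adjusted p = 0.000113). Ero1lb, the oxidase that works with protein disulphide isomerases, had a log2 fold change of -0.21 (adjusted p = 0.00148) and was not called on log2(TPM + 1) (adjusted p = 0.189, limma).

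In α7-/- against WT, 3 genes of the 5 lists were called, all of them among the 23 peroxide and glutathione enzymes tested. Over all genes tested 1.6% were called. Gpx6, a glutathione peroxidase that lacks selenocysteine in the mouse, was at 203, 166 and 180 TPM in WT and 63.2, 66.2 and 60.4 TPM in α7-/- (log2 fold change -1.21, adjusted p = 7.83e-06, edgeR). In α7ΔIBB/ΔIBB it was at 184, 155 and 187 TPM, within or near the WT range, and it was higher there than in α7-/- by 1.07 on the log2 scale (adjusted p = 6e-06). Srxn1 was lower (-0.31, adjusted p = 0.0466) and Sod3, an extracellular superoxide dismutase, higher (0.44, adjusted p = 0.0217) in α7-/- than in WT, and of these only Gpx6 was also called on log2(TPM + 1) with limma. The call of Srxn1 was also lost with library totals alone (adjusted p = 0.0564), with the replicate number as a block (adjusted p = 0.0746) and in 5 of the 6 fits that left out 1 sample. That of Sod3 was lost in 4 of these 6 (adjusted p = 0.0545 to 0.131).

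**Figure D5:**
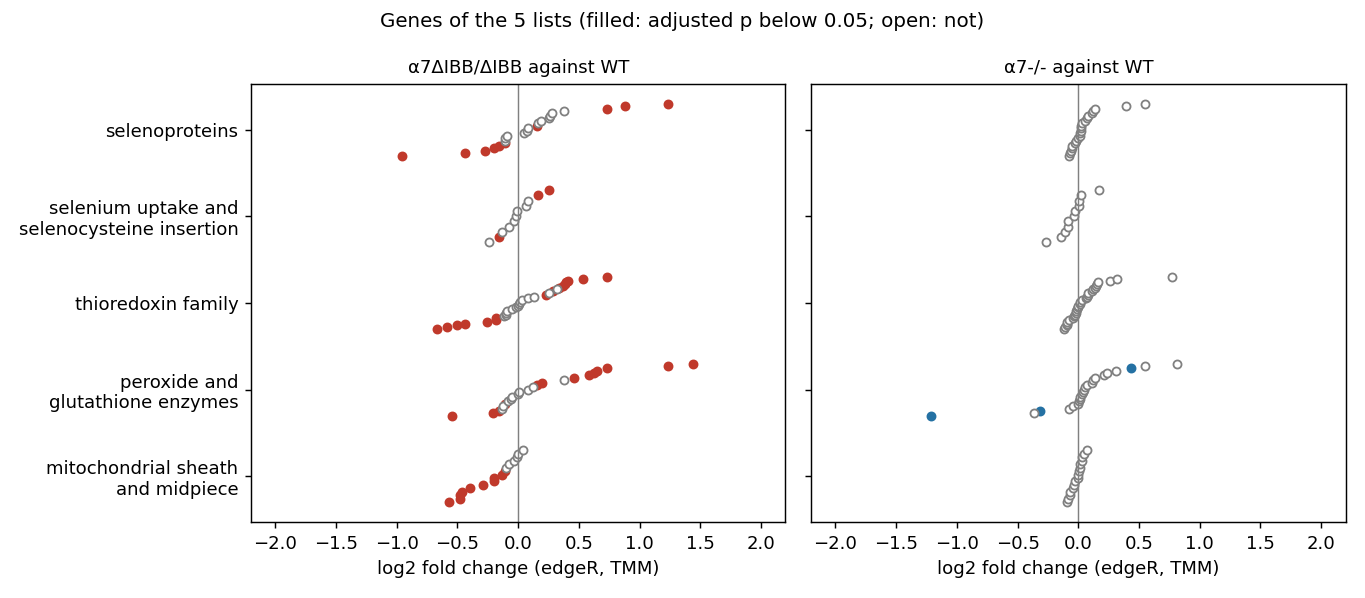
Log2 fold change (horizontal axis) of every tested gene of the 5 lists, for α7ΔIBB/ΔIBB against WT (left) and α7-/- against WT (right), 3 samples per genotype; each point is a gene, filled where the adjusted p was below 0.05. The filled points of the mitochondrial sheath list all lie below 0 on the left, and on the right 3 points are filled.

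Direct comparison of the lines gave 10 of 16 mitochondrial sheath genes lower and none higher in α7ΔIBB/ΔIBB than in α7-/-, with Armc12 at -0.49 and Spata19 at -0.45 on the log2 scale. Of the 22 selenoproteins tested 2 were higher and 6 lower, of the 11 uptake and insertion genes 2 and 2, of the thioredoxin family 3 and 9, and of the peroxide and glutathione enzymes 7 and 5, where 13.5% of all genes tested were higher and 16.8% lower. With library totals alone the counts higher and lower were 3 and 7 for the sheath list, 7 and 3, 3 and 1, 10 and 5, and 10 and 0 for the others in the same order. Over all genes tested 4931 were higher and 2016 lower under that scaling. On log2(TPM + 1) with limma the sheath list had 3 higher and 5 lower, where 3681 of all genes were higher and 1285 lower. Gsr, the reductase that regenerates glutathione, was higher by 0.57 (adjusted p = 1.34e-05, edgeR), and Secisbp2 had a log2 fold change of -0.32 (adjusted p = 0.000937), which was not called on log2(TPM + 1) (adjusted p = 0.147, limma). The mitochondrial thioredoxin reductase Txnrd2 was higher by 0.61 (adjusted p = 0.038), a call that was lost in 5 of the 6 fits that left out 1 sample.

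Genes with the most similar profiles were found for each of the 6 called genes as the smallest root mean square difference between centred log2 profiles over the 9 samples, among 16296 genes. The nearest to Smcp was Odf1 (0.0220), the outer dense fibre protein of the sperm tail, followed by 4930503B20Rik and Ankef1, against a median difference of 0.271 over all genes. The nearest to Txndc2 were Galntl5, Slc35a5 and 4930503B20Rik (0.0292 to 0.0326), and those to Txndc8 were Ccdc186, Stat4 and Rffl (0.0252 to 0.0284). The nearest to Gpx4 were Tmem219, Lrrcc1 and Tex22 (0.0140 to 0.0239), to Prdx4 Zbtb4, Dpm2 and Cylc1 (0.0270 to 0.0295), and to Lrp8 Gatad2a, Nhsl1 and Tram2 (0.0440 to 0.0472). The profiles share libraries and depth, and no test was made of these distances.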

How the data were processed

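The authors pseudoaligned the reads with kallisto (version 0.45 in the submitters' processing notes, a later release in the study's methods) to mouse mm10 transcripts; the transcript release is not given in the sources used here. The deposited files hold estimated counts and TPM per transcript for each sample, with length and effective length. Of 96626 transcripts, 95301 were matched by identifier to GENCODE M21 (GRCm38) and summed to 32035 genes; 1325 were left out. Txndc2 had 1 of its 2 annotated transcripts in the files. Estimated counts were rounded and tested with edgeR 4.0.16 (R 4.3.3; filterByExpr, TMM, quasi-likelihood test, only the 6 samples compared), with Benjamini-Hochberg adjustment and a threshold of 0.05. Shares and ratios were tested with exact two-sided permutation tests. Alternatives used DESeq2 1.42.0, limma 3.58.1, other scalings, filters and pseudocounts (1 and 0.1 TPM), a replicate block, length-scaled TPM, reads of near-identical sequences summed (blastn 2.17.0+; 95% identity over 100 bases) and leaving out each sample. Gpx4 shares such sequence with a pseudogene and Selenop with Ccdc152. The other genes of the group share none, so for them this alternative repeated the main fit. The fits were tested on simulated data. Totals of 24973189 to 31629697 counts per sample lay behind the values; Selenop and Lrp8 rested on 1525 to 3946 counts per sample. Library strand is not stated, so overlapping antisense reads cannot be told apart. The genes and lists were chosen with earlier results of these data known. Named were all 8 genes, their transcripts at 1 TPM or more, up to 2 genes per direction from each list (called, largest change, groups not overlapping, 1 TPM or more), 3 nearest profiles per called gene, and any marker at 0.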

Additional observations from a re-analysis of the deposited data

Results flagged for a closer look

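Each result here was singled out because the effects of the 2 lines against WT differed by the direct test of α7ΔIBB/ΔIBB against α7-/- (edgeR's quasi-likelihood test, Benjamini-Hochberg adjustment); all values are log2 differences between the lines. Among the 8 genes these were Smcp (-0.50), Txndc2 (-0.47), Txndc8 (-0.42), Prdx4 (-0.22), Gpx4 (-0.145) and Lrp8 (0.29), with adjusted p from 1.45e-06 to 0.00367. Lrp8 was at 0.16 in α7ΔIBB/ΔIBB and -0.14 in α7-/- against WT, and the latter value was not called. Among transcripts they were Smcp-201 (-0.48), Txndc2-201 (-0.45), Gpx4-201 (-0.40), Txndc8-201 (-0.39), Prdx4-203 (-0.24) and Lrp8-202 (0.45), with adjusted p from 0.00127 to 0.0261. The call of Prdx4-203 was lost in all 6 fits that left out 1 sample (-0.261 to -0.204), and those of the other transcripts held. The more abundant Gpx4-202 was at -0.09 and not called (adjusted p = 0.178, edgeR). Whether Gpx4-201 and Gpx4-202 changed differently was tested only through the shares. The share of Gpx4-201 had an exact permutation p of 0.1 (adjusted p = 0.45).

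Among genes of the lists, Armc12 (-0.49), Spata19 (-0.45), Selenov (-0.45), Glrx2 (-0.58), Pdilt (-0.65), Dio1 (-0.90) and Secisbp2 (-0.32) were lower in α7ΔIBB/ΔIBB than in α7-/-. Gsr (0.57), Txn1 (0.515), Msrb1 (0.48), Txnrd2 (0.61) and Secisbp2l (0.22) were higher, and the call of Secisbp2l was lost without α7ΔIBB/ΔIBB replicate 1 or without α7-/- replicate 3. Gpx6 (1.07) was also higher, and here the value against WT was -1.21 in α7-/- and -0.13 in α7ΔIBB/ΔIBB.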

How the results depend on the processing

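Of 1416 recomputed values, 1269 stayed the same, which for a tested value means its direction and side of the threshold, for a count within 1.5 times, and for other values within 1 SD. Smcp, Txndc2 and Txndc8 kept both in each of the 17 alternatives of both comparisons of α7ΔIBB/ΔIBB. The signs of small changes depended on the scaling, and the cause was not tested. In α7ΔIBB/ΔIBB against WT, Txnrd3 turned to 0.00533 with library totals alone and to 0.0308 and 0.0309 with limma at pseudocounts of 1 and 0.1 TPM, Gpx4 turned to 0.0222 at both pseudocounts, and Gpx4-202 turned to 0.0186 with library totals and 0.0455 with limma. Against α7-/-, Txnrd3 turned to 0.014, 0.0558 and 0.056 under the same settings, Gpx4 to 0.00539 at both pseudocounts and Gpx4-202 to 0.0385 with limma. In α7-/- against WT, Selenop turned to -0.00617 with length-scaled TPM and to -0.00784 and -0.00783 with limma. The count of genes called in α7-/- against WT was 466 with DESeq2, 624 without the filter, 70 with length-scaled TPM and 26 and 18 with limma, beside 299, and for the pathway lists it was 6, 5, 1, 1 and 1 under these settings, beside 3.

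Leaving out 1 sample at a time gave 3 to 5 of the 8 genes and 3 to 4 of their transcripts called in α7ΔIBB/ΔIBB against WT, with 3 genes without α7ΔIBB/ΔIBB replicate 2 or 3, and Prdx4-201 ranged from -0.0456 to 0.0949. In α7-/- against WT it gave 92 (without α7-/- replicate 1) to 518 (without WT replicate 1) genes called over all genes and 1 to 5 in the lists. There, Gpx4 ranged from -0.00298 to 0.0454, Smcp from -0.00858 to 0.036, Txnrd3 from -0.0346 to 0.00526, Txndc2 from -0.00349 to 0.0368 and Selenop from -0.0552 to 0.151, none of them called.

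Same-numbered samples did not deviate together (correlations of -0.0556 to 0.126), so the numbers were not taken to pair samples. With the replicate number as a block, 6, 0 and 6 of the 8 genes were called in the 3 comparisons, as without it. Over all genes tested 6793, 229 and 6032 were called with the block, against 6874, 299 and 5673 without it. The transcripts of the 8 genes called in α7ΔIBB/ΔIBB against WT were 3, beside 6, with Gpx4-201, Prdx4-203 and Lrp8-202 no longer called. Over all 47090 transcripts tested in that comparison the calls moved from 4580 to 2530. Of 6 samples, 4, 1 and 2 correlated best with their own number. With 3 samples per genotype, a permutation test could not fall below 0.1.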
